A study of Mus musculus with 2 samples.

Results

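The enzymes that build and open heme were followed in the liver of an adult mouse: Alas1, Alas2, Alad, Uros, Urod, Cpox, Ppox and Fech of the synthesis route, and Hmox1 of breakdown. The genes were chosen by symbol for their place in the pathway. Their rows were found by Ensembl identifier, ignoring the version, and all 9 were present in both gene tables, among 69691 entries, with 47 transcripts in the transcript tables. The liver came from 1 female C57BL/6J mouse aged 10 weeks, with no treatment, genotype or second animal in the labels. RNA selected for polyA tails was sequenced as 2 libraries, labelled technical replicates 1 and 2 of biological replicate 1 and called library 1 and library 2 here. Per the labels, library 2 was performed later, after the original publication, so library, date and handling cannot be told apart. Every SD below is over these 2 libraries and measures technical spread only, and no p-value is given because each side of the comparison is 1 library.

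Heme is an iron-bearing ring that cells need for hemoglobin, for cytochromes and, in the liver above all, for the cytochrome P450 enzymes that oxidise drugs and steroids. Its synthesis starts in the mitochondrion, where an ALA synthase joins glycine and succinyl-CoA. The middle steps run in the cytosol, and the last steps run in the mitochondrion again, where iron is inserted. ALA synthase is the controlled step. Alas1 is the form of the liver and most tissues, and Alas2 is the form of developing red cells. Heme oxygenase opens the ring and releases biliverdin, carbon monoxide and iron.

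The libraries stood apart as a whole. The expected counts, which are estimated fragment counts per gene, summed to 23309905 in library 1 and 19525500 in library 2. Mitochondrially encoded genes took 40.7% of all TPM (the relative abundance of transcripts, corrected for their length) in library 1 and 14.9% in library 2, while nuclear protein-coding genes took 37.6% and 73.7%. The difference between the libraries ran with the GC content of transcripts over all genes. Among tested nuclear genes with a GC content of 40% to 45% the median log2 fold, library 2 over library 1, was -1.23 (2330 genes), and at 55% to 60% it was 2.70 (2276 genes). Results on the heme enzymes are therefore given per library, and differences are given with and without this curve.

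All 9 enzymes were detected at a TPM of at least 1 in both libraries. Of 21461 nuclear protein-coding genes, 39.4% passed the same limit. In library 1 the order of levels was Cpox, Fech, Alas1, Uros, Urod, Alas2, Alad, Hmox1 and Ppox, from 67.5 down to 2.32 TPM. In library 2 it was Alas1, Alad, Fech, Urod, Cpox, Uros, Ppox, Alas2 and Hmox1, from 127 down to 12.7 TPM. The highest level was 29.1 times the lowest in library 1 and 10.00 times in library 2. Alad took rank 7 in library 1 and rank 2 in library 2, and Cpox moved from rank 1 to rank 5. Neighbours in the order were compared by the ratio of their TPM with an exact binomial 95% interval from their counts, which covers counting error only. In library 1 the steps from Alas2 to Alad, from Alad to Hmox1 and from Hmox1 to Ppox had intervals that included 1. The same held in library 2 for the steps from Alas1 to Alad, Fech to Urod, Urod to Cpox and Alas2 to Hmox1.

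**Figure D1:**
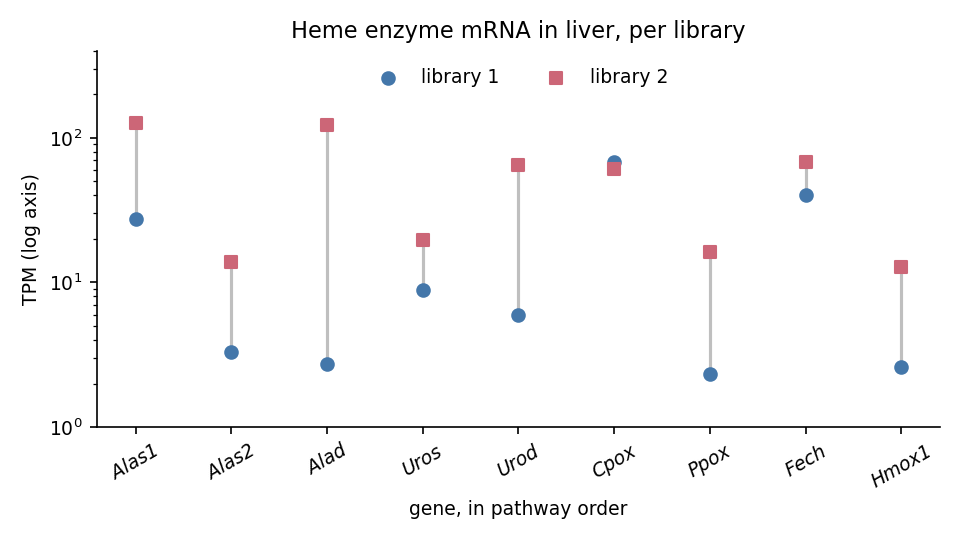
Each column is 1 gene, and the points are its deposited TPM in library 1 (circle) and library 2 (square) on a log axis, joined by a grey line. Cpox is the only one of the 9 with a higher TPM in library 1 (67.5 against 61.0), and Alad has the longest line (2.71 to 123).

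Alas1 (ENSMUSG00000032786.10), the liver's ALA synthase, lies on chromosome 9 at 106233455 to 106248654, minus strand, in GRCm38. It held 866 counts in library 1 and 2832 in library 2, which is 27.6 and 127 TPM. Its level was above that of 92.5% of nuclear protein-coding genes in library 1 and 96.3% in library 2. The mean was 77.5 ± 70.5 TPM (SD, n = 2), the highest mean of the 9. Its gene overlaps 4930500F10Rik on the opposite strand, which had 0 counts in both libraries.

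Alas2 (ENSMUSG00000025270.9), the red-cell ALA synthase, lies on chromosome X at 150547375 to 150570638, plus strand. It held 108 counts in library 1 and 385 in library 2, or 3.33 and 13.8 TPM, with a mean of 8.55 ± 7.38 TPM (SD, n = 2). Alas1 was the more abundant synthase in both libraries. The TPM ratio of Alas1 to Alas2 was 8.30 in library 1 (counting interval 6.79 to 10.2) and 9.26 in library 2 (8.32 to 10.3), so the ratios differed by less than their counting error. Alas1 made up 89.2% and 90.2% of the ALA synthase TPM. These values count all annotated forms of each gene, noncoding ones included. Over protein-coding transcripts alone, Alas1 had 6.10 and 51.0 TPM and Alas2 had 2.43 and 13.8 TPM, which is a ratio of 2.51 in library 1 and 3.71 in library 2. The GC content of both genes was 52.6% when transcripts were weighted by TPM. Without weights it was 53.2% for Alas1 and 50.6% for Alas2. Apex2, on the strand opposite Alas2 and overlapping it, held 71 and 92 counts, and whether reads were counted by strand is not given in the sources used here.

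Red-cell transcripts were present beside Alas2. The 4 globin genes of the erythroid marker list summed to 134 TPM in library 1 and 2049 TPM in library 2, and the whole list of 16 genes summed to 146 and 2188 TPM. Hba-a2 and Hbb-bs, which code for adult hemoglobin chains, had 75.3 and 52.4 TPM in library 1 and 772 and 756 TPM in library 2. Hba-a1 had 0.68 and 358 TPM. Hba-a1 and Hba-a2 are near-identical copies, as are Hbb-bs and Hbb-bt, so the division of reads between them is uncertain. The other erythroid markers were low: 10 of the 16 had at most 5 counts in each library. Tfr2, which hepatocytes also express, had 11.5 and 135 TPM, and the erythroid factor Klf1 had 12 and 64 counts. Gata1, the erythroid transcription factor, the membrane protein gene Rhag and the gene Tspo2 had 0 counts in both, where 0 allows up to 3 counts (counting error only). The part of red cells and their precursors in the Alas2 level was not tested. In a bulk tissue, fewer cells of a type and less RNA per cell cannot be told apart.

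The Alas2 messenger carries an iron-responsive element, a short hairpin near its 5′ end that iron regulatory proteins bind, and the gene is a known target of GATA1. Both features are shown because they distinguish the known control of Alas2 from that of Alas1. The hairpin was searched as a C, any 5 bases, CAGTG and any base, with all 5 base pairs of the upper stem possible. It occurred once in Alas2-201 and once in Alas2-202, and not in the retained-intron transcript Alas2-203 or in Alas2-204. The 28 bases below span a splice junction, with 24 bases at chrX:150547462-150547485 and 4 at chrX:150552149-150552152 (GRCm38, plus strand), and capitals mark the loop.
Alas2 iron-responsive element: ttcgtcctCAGTGCagggcaacaggact
Transcripts with this hairpin held 73.0% of Alas2 TPM in library 1 and 100% in library 2. The next run is the stretch just before the first annotated Alas2 exon, chrX:150547175-150547374 (GRCm38.p6, plus strand, from RefSeq promoter windows), with the letters AGATAA, here as their reverse complement TTATCT, in capitals.
Alas2 upstream stretch: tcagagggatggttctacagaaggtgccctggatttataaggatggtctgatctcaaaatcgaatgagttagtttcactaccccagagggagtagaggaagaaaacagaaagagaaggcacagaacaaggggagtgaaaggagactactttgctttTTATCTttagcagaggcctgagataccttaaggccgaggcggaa
The match lies at position -86 from the RefSeq start. Of all 32851 promoter windows of 300 bases, 11.2% hold these letters on either strand. Promoter windows were matched for 7 of the 9 enzymes, as 10 windows, and the letters occurred in those of Alas2 and Cpox (at position 4) only. Neither Alas1 window held them. A match of letters is a description and shows no binding.

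Alad (ENSMUSG00000028393.6), which condenses ALA to porphobilinogen, lies on chromosome 4 at 62509169 to 62519918, minus strand. It held 80 counts in library 1 and 1968 in library 2, which is 2.71 and 123 TPM. It was above 69.7% of nuclear protein-coding genes in library 1 and above 96.2% in library 2. The mean of 62.9 ± 85.2 TPM (SD, n = 2) had the widest relative spread of the 9, at 135% of the mean. Whether Alad is one of the abundant or one of the scarce enzymes of this liver thus differed between the libraries.

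Uros (ENSMUSG00000030979.8), which closes the tetrapyrrole ring, lies on chromosome 7 at 133686243 to 133710072, minus strand. Its 277 and 454 counts were 8.91 and 19.6 TPM, with a mean of 14.3 ± 7.59 (SD, n = 2). Its place among nuclear protein-coding genes hardly moved, above 83.3% of them in library 1 and 84.3% in library 2. Bccip, which overlaps it on the opposite strand, held 852 and 1086 counts. Urod (ENSMUSG00000028684.10), which removes carboxyl groups from the ring's side chains, lies on chromosome 4 at 116989965 to 116994413, minus strand. It held 154 counts in library 1 and 1109 in library 2, or 5.94 and 64.5 TPM, with a mean of 35.2 ± 41.4 (SD, n = 2). Urod stood below Uros in library 1 and above it in library 2.

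Cpox (ENSMUSG00000022742.5), the first of the late mitochondrial enzymes, lies on chromosome 16 at 58670292 to 58717636, plus strand. It had the highest count of the 9 in library 1, 4623, and 2824 in library 2. Its levels of 67.5 and 61.0 TPM were the closest pair among the 9 (64.3 ± 4.60, SD, n = 2). Fech (ENSMUSG00000024588.8), the ferrochelatase that inserts iron, held 2490 and 2870 counts, or 40.2 and 68.5 TPM (54.4 ± 20.1, SD, n = 2). Ppox (ENSMUSG00000062729.7), which acts between them, lies on chromosome 1 at 171275990 to 171281186, minus strand. It held 90 and 432 counts, or 2.32 and 16.2 TPM (9.27 ± 9.83, SD, n = 2). Ppox was the lowest of the late enzymes in both libraries. The TPM of Cpox was 29.1 times that of Ppox in library 1 (counting interval 23.6 to 36.3) and 3.76 times in library 2 (3.40 to 4.17). The ratio of Cpox to Fech was 1.68 in library 1 (1.60 to 1.77) and 0.89 in library 2 (0.85 to 0.94), so their order turned.

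Hmox1 (ENSMUSG00000005413.7), the inducible heme oxygenase, lies on chromosome 8 at 75093621 to 75100589, plus strand. It held 83 and 275 counts, or 2.61 and 12.7 TPM, with a mean of 7.68 ± 7.16 (SD, n = 2), the lowest mean of the 9. Hmox2, the constitutive form, was higher in both libraries, at 19.1 and 44.4 TPM. The TPM ratio of Hmox2 to Hmox1 was 7.31 in library 1 (counting interval 5.77 to 9.35) and 3.48 in library 2 (3.04 to 4.01). Hmox1 is also made by macrophages that take up red cells. Of 12 Kupffer cell and macrophage markers, 11 had a TPM of at least 1 in both libraries, and the list summed to 163 and 297 TPM. Its highest members by mean TPM were the iron exporter Slc40a1 (85.4 and 71.9 TPM), Clec4f (7.82 and 59.6 TPM) and Cd5l (13.3 and 54.0 TPM), and none of the 12 was at 0. Vsig4, close behind by the mean, was lower in library 2 (28.6 against 38.2 TPM). The part of these cells in the Hmox1 level was not tested.

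The libraries were then compared on counts scaled by TMM, a factor computed over all genes. A gene counted as called when its level differed at least 2-fold (a log2 fold past 1 or -1) and its counts in the libraries came to 20 or more together. Of the 9 enzymes, 6 were called higher in library 2 and 1 lower. Over all 12728 tested genes, 33.0% were called higher and 24.0% lower. Alad was 19.6-fold higher in library 2, with a log2 fold of 4.29 (counting interval 3.98 to 4.64). Urod followed at 2.52 (2.28 to 2.78) and Ppox at 1.93 (1.61 to 2.28). Alas2 had a log2 fold of 1.51 (1.20 to 1.83), Hmox1 of 1.40 (1.05 to 1.78) and Alas1 of 1.39 (1.28 to 1.50). Cpox was lower in library 2 at -1.03, but its interval of -1.10 to -0.97 crossed the limit of the call. Uros at 0.39 (0.17 to 0.61) and Fech at -0.12 (-0.20 to -0.04) were not called. The median over the 9 was 1.40, and over all tested genes it was 0.04.

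The scale mattered for the enzymes near 0. Total-count scaling shifted all log2 folds up by 0.58. With it, 6 enzymes were called higher and none lower (Cpox -0.46), where 42.2% of all tested genes were called higher and 7.67% lower. By the ratio of deposited TPM, 7 were higher, Uros included (1.13), and none lower, where 46.4% of all tested genes were higher and 2.64% lower. Fech changed sign, from -0.12 with TMM to 0.46 with total counts and 0.77 by TPM. The 8 synthesis enzymes together made 159 TPM in library 1 and 494 TPM in library 2. Rescaled over nuclear protein-coding genes alone, the sums were 422 and 670 TPM. On that scale Cpox had 180 in library 1 and 82.8 in library 2, and Fech had 107 and 93.0.

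The order of the folds was close to the order of GC content. Transcript GC content, weighted by TPM, was 47.7% for Cpox, 49.9% for Uros, 52.6% for Alas1 and Alas2, 53.3% for Hmox1, 53.9% for Urod, 54.9% for Ppox and 58.2% for Alad. Fech had no value, because its annotated transcript differed in length from the deposited one. Among 3194 tested nuclear genes with a GC content of 50% to 55%, the median log2 fold was 0.89, the interquartile range was 0.30 to 1.58, and 45.9% were called higher. Alas1, Alas2 and Hmox1 lay inside that range, while Urod and Ppox lay above it. Ppox, however, stands at the upper edge of this class. In the narrower step of 54% to 56% the median was 1.89 and the interquartile range 1.26 to 2.53, with Ppox (1.93) inside it. Alad lay above the upper quartile of its class of 55% to 60% (3.55), where 91.5% of genes were called higher. In the narrower step of 58% to 60% the upper quartile was 4.28, just under Alad at 4.29. In the class of 45% to 50% the interquartile range was -0.81 to -0.02, with Cpox below it and Uros above it. Uros stands at the upper edge of this class. Its 0.39 was above the upper quartile of the step of 48% to 50% (0.25). It was inside the interquartile range of the step of 50% to 52% (0.02 to 0.92).

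After a smooth curve of fold on GC content was subtracted, 2 of 8 enzymes were still called higher and none lower. Over the 12055 genes with a GC value, 8.60% were then called higher and 8.07% lower. The remaining log2 differences were 1.08 for Alad and 1.08 for Urod, both just past the limit. Alas2 had 0.55, Alas1 0.44, Uros 0.24, Hmox1 0.21 and Ppox 0.06. Cpox had -0.68. With GC content averaged over transcripts without weights, Alas2 (1.28), Alad (1.48) and Urod (1.27) were past the limit, and Ppox was at -0.024. With that curve 11.5% of 12113 genes were called higher and 11.1% lower. The unweighted GC content of Alas2 takes in Alas2-203 (43.7% GC) in full, although that form held 6.20 counts in library 1 and 0 in library 2. The cause of the GC difference between the libraries was not tested.

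**Figure D2:**
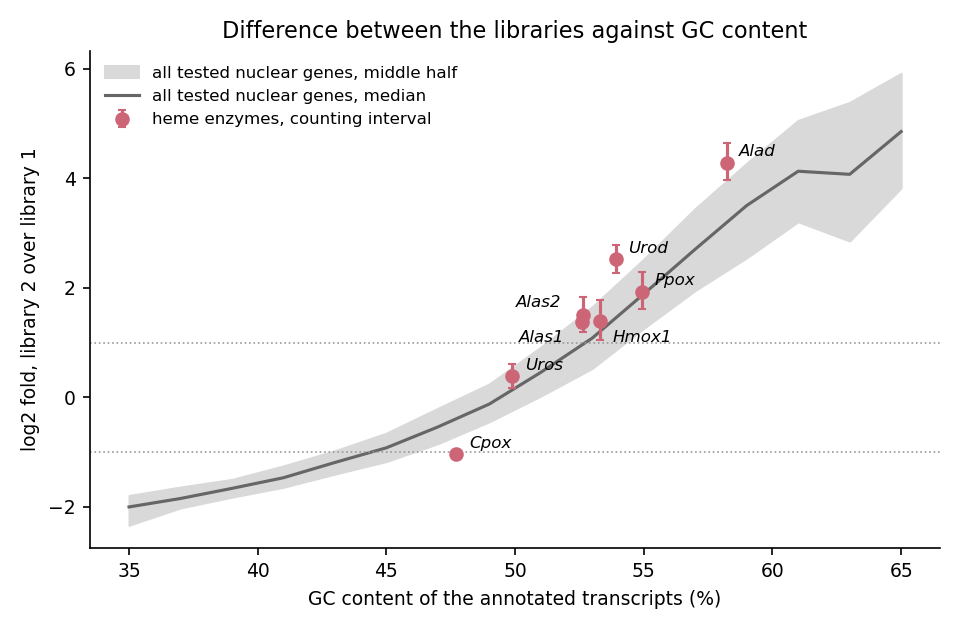
The horizontal axis is transcript GC content in percent, and the vertical axis is the log2 fold of library 2 over library 1. The grey line and band are the median and the interquartile range of all tested nuclear genes in steps of 2 points of GC, and red points are 8 heme enzymes with counting intervals. Urod sits above the band and Cpox below it, Alad and Uros lie near its upper edge, and dotted lines mark the limit of a call.

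Transcript shares differed between the libraries as well. Cpox and Fech have 1 annotated transcript each, and the other 7 enzymes have 3 to 10. The leading transcript differed between the libraries for 3 of these 7, Alas1, Uros and Ppox. Among 6525 genes with at least 2 transcripts and a TPM of at least 1 in both libraries, 30.3% had a different leading transcript. For genes at 5 TPM or more in both libraries, a change of at least 20 percentage points was counted. Alas1, Uros and Urod met that level with 27 transcripts, of which 4 changed, and over all such genes 13.5% of 22534 transcripts changed. At 10 points, 8 of the 27 changed, beside 23.3% of all.

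Alas1 was split among many forms. The protein-coding transcripts together held 22.1% of its TPM in library 1 and 40.1% in library 2. The retained-intron transcript Alas1-204 led library 1 with 36.5% and had 11.7% in library 2, on nearly equal counts of 160 and 159. The coding transcript Alas1-201 led library 2 with 31.4%, against 13.8% in library 1, on 1198 and 169 counts. Alas1-204 has a GC content of 48.3% and Alas1-201 of 53.3%. Alas1-206 and Alas1-202, both at 53.0%, had lower shares in library 2 (32.5% to 18.5%, and 6.95% to 4.10%). Whether GC content bears on these shares was not tested. The share of forms marked for nonsense-mediated decay was 0% in library 1 and 15.7% in library 2. Most of the latter was Alas1-205 (13.1%). Its deposited length was 864 bases, against 1902 in the M21 annotation that gave its class, so that class is uncertain.

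Uros showed a swap between coding forms. Uros-204 held 68.3% of the gene's TPM in library 1 (180 counts, deposited posterior SD 14.2) and 4.56% in library 2 (17.9 counts, SD 22.5). Uros-203 held 0% in library 1 (0 counts, SD 9.11) and 51.6% in library 2 (228 counts, SD 24.4). Each difference was larger than the deposited uncertainty of the division of reads. The coding forms as a whole held 78.8% and 72.8%, so the swap was within that class. Urod kept its coding form Urod-201 in the lead, at 72.6% and 79.9%, and its retained-intron form Urod-202 had 22.7% in library 1 and 1.38% in library 2.

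Ppox had no count assigned to a coding transcript in library 1. All 90 of its counts there were assigned to retained-intron forms. By TPM these were led by Ppox-202 with 54.1%, on only 13.4 counts (SD 4.13) and a length of 650 bases. The longer Ppox-206 held more counts, 54, and 35.8% of TPM. In library 2 the coding form Ppox-201 led with 174 counts (SD 11.7) and 42.5%, and the retained-intron forms held the other 57.5%. B4galt3, which overlaps Ppox on the opposite strand, held 42 and 156 counts. Alad was led by its coding form Alad-201 in both libraries, at 51.9% and 94.0%. Its noncoding form Alad-203 had 47.1 and 83.2 counts, while Alad-201 had 32.9 and 1820. The gene's large difference between the libraries therefore lay mainly in Alad-201. Alas2-201 led Alas2 with 65.1% and 75.2%, and the retained-intron form Alas2-203 had 6.20 counts in library 1 and 0 in library 2. Hmox1-201 held 96.9% and 97.8% of Hmox1, the steadiest shares among the 7.

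**Figure D3:**
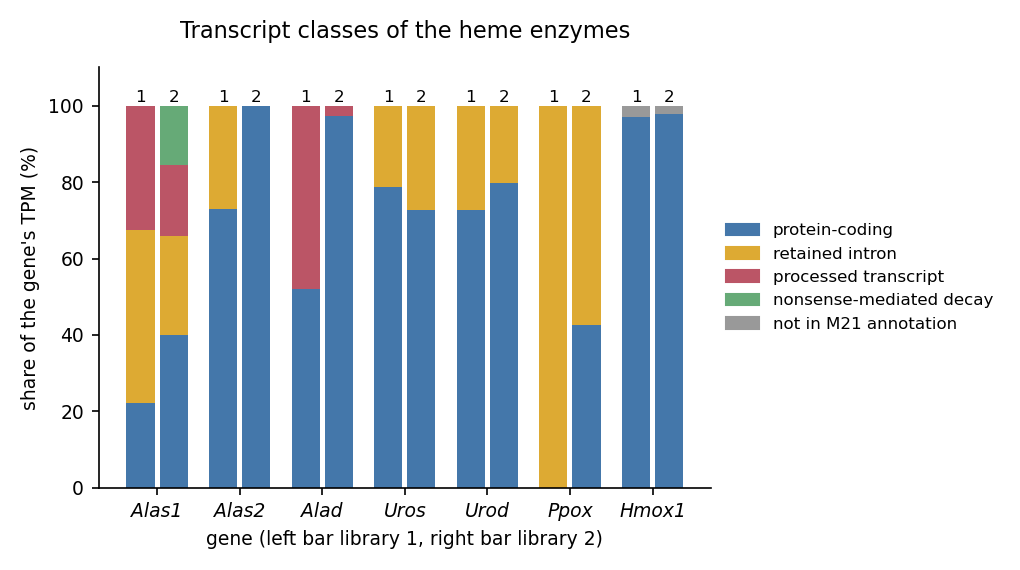
Stacked bars give the share of each gene's TPM, in percent, held by the annotated classes of transcript in library 1 (left bar) and library 2 (right bar), for the 7 enzymes with more than 1 transcript. Ppox has no protein-coding share in library 1 and 42.5% in library 2, and Hmox1 is almost wholly protein-coding in both.

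Other genes of heme handling (transporters, cofactor supply, regulators and later breakdown steps) were taken from a list of 39, of which 38 were matched and all 38 tested. In library 2, 16 were called higher and 7 lower, with a median log2 fold of 0.65, beside the 33.0% and 24.0% of all tested genes. After the GC curve was subtracted, 2 of 37 were higher and 1 lower, beside 8.60% and 8.07%. The highest by mean TPM were the heme-binding Pgrmc1 (1392 and 945 TPM) and the bilirubin-conjugating Ugt1a1 (343 and 575 TPM). Next came Clpx, a mitochondrial unfoldase that acts on ALA synthase (221 and 166 TPM), and Slc25a39, a mitochondrial carrier (22.1 and 294 TPM). Sucla2 (161 and 119 TPM) and Suclg1 (61.8 and 209 TPM), subunits of the enzyme that forms succinyl-CoA reversibly, followed. Pgrmc1, Ugt1a1 and Clpx thus stood above every one of the 9 enzymes in both libraries.

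Among these genes the largest log2 folds toward library 2 were those of Tspo, an outer mitochondrial membrane protein (4.91, 0.85 to 49.4 TPM), Blvrb (4.33, 2.41 to 98.9 TPM) and Slc25a39 (4.24). Folds toward library 1 included those of Ireb2 (-1.82), an iron regulatory protein, and Pgrmc1 (-1.45). Tspo (1.50) and Blvrb (1.73) remained past the limit after the GC curve was subtracted, and Abcb10 (-1.01) passed it downward. Biliverdin reductase turns biliverdin into bilirubin, and Blvra and Blvrb code for the reductases named A and B. Their values here are mRNA levels, and the part of either in forming bilirubin was not tested. The TPM of Blvrb was 0.41 times that of Blvra in library 1 (counting interval 0.28 to 0.58) and 7.00 times in library 2 (6.02 to 8.18), so their order turned as that of Cpox and Fech did.

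**Figure D4:**
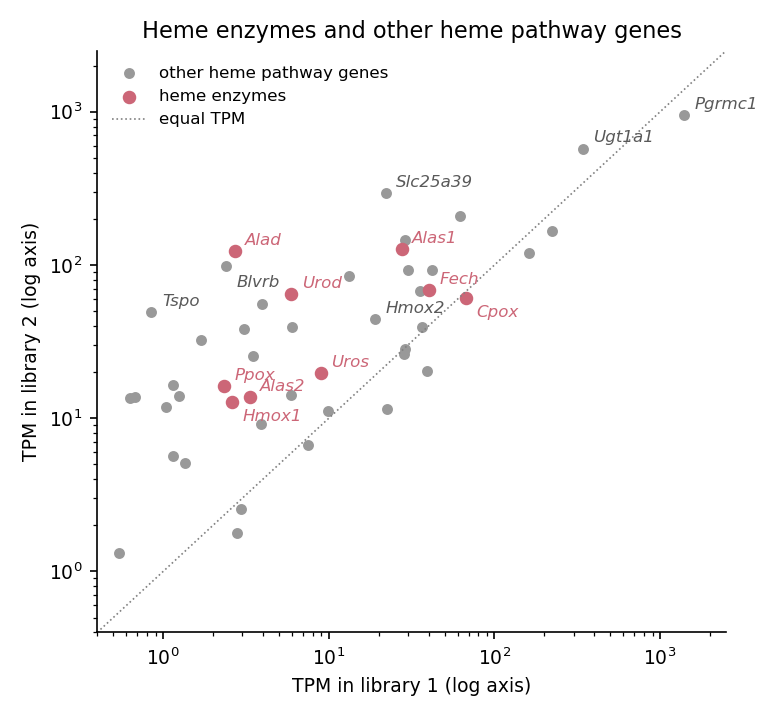
Each point is a gene, at its TPM in library 1 (horizontal, log axis) and library 2 (vertical, log axis). Red points are the 9 heme enzymes, grey points the 38 other heme pathway genes, and the dotted line marks equal TPM, with Alad, Blvrb and Tspo far above it and Cpox just below.

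The tissue label was checked against marker lists. All 10 hepatocyte markers were detected in both libraries, led by mean TPM by Alb (22690 and 49848 TPM), Apoa2 (3002 and 18343 TPM) and Ahsg (2005 and 8654 TPM). All 5 endothelial markers were detected, at a summed 14.4 and 38.6 TPM, with Kdr, Stab2 and Cdh5 highest by the mean of the libraries. Of 4 bile duct markers 1 passed 1 TPM in both libraries, and Sox9, Krt19 and Epcam were the highest by the mean, although Krt19 was the lowest of the 4 in library 1 (0.06 TPM).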

How the data were processed

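PolyA-selected liver RNA of 1 mouse was analysed in 2 technical libraries. For each library the authors deposited tables at the level of genes and of transcripts. Per the file headers, these hold expected counts (estimated counts, not normalised), TPM (a relative level per transcript length), and isoform shares in percent of the gene's TPM, with posterior SDs of counts. Genome mm10 and annotation M4 are named per the labels and the deposited notes beside the tables. The aligner, quantification tool and strand setting are not given here in any label or header. Symbols, transcript types and coordinates come from GENCODE M21 (GRCm38), which gave a symbol to 42462 of 43346 Ensembl genes. Promoter windows come from RefSeq (GRCm38.p6).

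Expected counts were rounded and scaled with TMM in edgeR 4.0.16 (factors 0.818 and 1.22). Log2 folds used a prior count of 0.5. Intervals are exact Clopper-Pearson intervals at 95%. With 1 library on each side no model test has residual degrees of freedom. GC content was taken from transcripts with an M21 length within 10% of that deposited, and the loess curve (span 0.3) was fitted on nuclear genes in R 4.3.3. DESeq2 1.42.0 gave the other size factors. The fold computation was tested on simulated counts with a small set of genes changed and no trend with GC content. That test therefore does not cover the GC trend between these libraries. The enzymes, lists, thresholds and naming rule were chosen with earlier results of these data known. The rule named all 9 enzymes, the 6 highest other heme genes and the 3 largest folds in each direction among them, and of each marker list the 3 highest genes and those at 0. A gene that the rule names is not reported here. Naming Hmox2, Blvra, Abcb10, Hbb-bt, Tfr2, Klf1, Vsig4, the overlapping genes and the single transcripts was decided after seeing their values, outside the rule. Fdx2 had no match.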

Additional observations from a re-analysis of the deposited data

How the results depend on the processing

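The number of enzymes called between the libraries was 7, with 6 higher and 1 lower in library 2. It stayed between 6 and 7 under total-count scaling, DESeq2 size factors, the TPM ratio and no minimum count. The same held for a minimum of 200 and for a call that needs the whole interval beyond the limit. Every enzyme had at least 275 counts in library 2, so neither change of the minimum could alter the number. By the TPM ratio all 7 were higher, with Uros in and Cpox out. Shares of all tested genes are given above for TMM, total counts, the TPM ratio and both GC curves. They are not given for the other alternatives. The number called was 2 of 8 after the GC curve was subtracted. The median log2 fold of 1.40 was 1.98 with total counts, 2.20 by TPM ratio, 0.34 after the GC curve and 0.28 with unweighted GC content. Ppox turned from 1.93 to -0.024 with unweighted GC content. The GC curve takes out by construction what runs with GC content, and the causes of the other shifts were not tested. Of the single enzymes' folds under all alternatives, 30 of 61 stayed inside the main counting interval. All 9 did so with DESeq2 size factors, with TMM without mitochondrial genes and with posterior mean counts. The posterior mean counts equalled the expected counts for every enzyme, so that alternative could not move a fold. With total counts and with the TPM ratio all 9 moved outside the interval. After the GC curve 1 stayed inside, and with unweighted GC content 2 did. At a limit of 5 TPM, 5 enzymes were detected in both libraries, in place of 9. At 10 percentage points, 8 of 27 transcripts changed share, in place of 4. Of the other heme genes 23 were called, and 3 after the GC curve, an alternative added after seeing the data. The median of the mean levels was 35.2 TPM, and 5.94 to 61.0 TPM with either library alone. With 1 library alone, 9 enzymes were still detected, and 6 to 8 of 9 kept the leading transcript of the mean share. No fold exists without either library. No paired analysis was possible because the series has 1 group. The lowest counts, 80 in library 1 and 275 in library 2, limit the precision of Alad, Hmox1 and Ppox.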
